A study of Mus musculus with 6 samples.

Results

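The left ventricles of mice without the histone demethylase gene Kdm3a (KO) were compared with wild-type (WT) left ventricles over both surgeries of the study, sham and transverse aortic constriction (TAC), the banding of the aortic arch that puts the ventricle under pressure overload. The genes described are those whose 3 KO arrays all lay above, or all below, the 3 WT arrays. There were 2430 such genes among 9625 tested, 1312 higher and 1118 lower in KO. That is 25.2% of the genes tested (13.6% higher and 11.6% lower). When the 2 sets of arrays do not overlap, the KO minus WT difference must have the same sign in sham and in TAC, so the shared sign is given by the choice and is no result. Non-overlap is given as a description with no test.

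Of the 6 bead arrays, 3 were of WT mice (1 after sham surgery, 2 after TAC) and 3 of KO mice in the same numbers, all of left ventricle from adult male mice labelled c57/BL6. Mice were 6 to 8 weeks old at surgery, and by the labels the hearts were taken 3 weeks later. The study's text gives a later harvest, describes the Kdm3a-KO as a global deletion on a mixed FVB/C57/Bl6J background with littermate controls, and mentions a separate C57/Bl6J line, while the labels do not say which line was arrayed. All groups share sex and tissue, and the KO and WT differ by the Kdm3a deletion as labelled. The labels do not state that the TAC replicates are separate animals, so the p-values rest on a spread that may be technical.

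KDM3A removes methyl groups from mono- and dimethylated lysine 9 of histone H3, a mark of silenced chromatin, and works as a coactivator of transcription. It is known for roles in spermatogenesis, in energy metabolism and in the response to hormones and low oxygen. Pressure overload raises fetal and matrix genes in the ventricle. In whole ventricle, fewer cells of a type and less RNA per cell cannot be told apart.

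An array had 14960 to 16015 probes above background, the level exceeded by few olfactory, vomeronasal and taste receptor probes, and 2062 of the 2430 genes were above background on all 6 arrays. Another 70 were at background on all WT arrays and 123 on all KO arrays. Heart muscle markers were bright on every array (9 tested, summed intensity 186316 to 222168 in WT and 217704 to 219679 in KO). Of these 9, Ckm and Myh6 were higher in KO without overlap and 0 lower, beside 13.6% and 11.6% of all genes tested. Ckm and Myh6 differed by 0.12 and 0.04 in sham and by 1.44 and 0.77 in TAC. The arrays of Tnni3 and Ttn overlapped, with differences of 0.58 and -0.49, and the list's median was 0.09. By contrast, 0 of 7 adipocyte genes, 1 of 10 lymphocyte genes and 1 of 8 mesothelial and Schwann genes could be tested. Over all genes the median size of the difference was 0.19 on the log2 scale in sham and 0.38 in TAC.

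Kdm3a itself was lower in KO on each of its 3 probes above background. The probe with the clearest separation read 292 in WT Sham and 296 and 264 in WT TAC, against 129, 137 and 143 in KO Sham and the KO TAC arrays, where it was at background. It passed the test when every probe was fitted (log2 -2.45 ± 0.18 (SE, 3 against 3 arrays), adjusted p 0.0113 by limma). The brightest probe, which stands for Kdm3a among the 9625 genes, read 502, 466 and 486 in WT and 389.9, 394 and 362 in KO. Its difference of -0.45 ± 0.13 did not pass (adjusted p 0.148), although the groups did not overlap. Another probe differed by -0.92, and the last was at background throughout. Which exons were deleted is not given in the labels, so a probe outside the deletion may still read the KO transcript.

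The test of genotype with surgery as covariate called 7 genes, 4 higher and 3 lower in KO (limma, adjusted p under 0.05). They are 0.0727% of the genes tested (0.0416% higher, 0.0312% lower), and all 7 also had arrays that did not overlap. At an unadjusted p under 0.05 there were 2568 genes (1318 higher and 1250 lower), 26.7% of those tested. The residual spread of this fit has 3 degrees of freedom and takes in any difference between the sham and the TAC effect. An exact permutation of genotype within the surgeries has 12 arrangements and cannot give a two-sided p under 0.167. The count depends on the model: with 1 coefficient per group, where the spread comes from the TAC pairs alone, 740 genes were called higher and 872 lower with the surgeries weighted equally, and 1568 and 1524 weighted by arrays, and leaving out either sham array gave 2077 and 1884.

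Differences and folds, bounds included, are those of background-corrected values. The array intensities printed are as deposited and still contain the background, so their own ratios are smaller. Without the correction the log2 differences of the 7 genes were 4.71 for Tnfrsf22, 1.29 for Cldn34c1, 0.66 for Pnpla3, 1.11 for Gcnt1, -2.91 for Eif2s3y, -1.37 for Hspa1l and -1.08 for Rhox5. Cldn34c1 and Pnpla3 then missed the threshold (limma, adjusted p 0.0539 and 0.137).

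Tnfrsf22, which encodes a decoy receptor for the death ligand TRAIL in the mouse, had the largest shared difference. Its intensity was 202 in WT Sham and 173 and 152 in WT TAC, against 5042 in KO Sham and 4651 and 4053 in KO TAC. The KO and WT arrays were far apart under both surgeries. The log2 difference was 6.01 ± 0.21, a 64.3-fold higher level in KO (adjusted p 0.000723), with 5.64 in sham and 6.19 in TAC. The whole of it rests on 1 probe. Of the other 4 probes of the gene, 2 were above background on all arrays and differed by -0.28 and -0.21, and 2 were at background throughout. Its chromosomal neighbours Tnfrsf23 and Tnfrsf26 were at background on all 6 arrays.

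Eif2s3y, the Y-linked copy of the gamma subunit of translation initiation factor eIF2, stood at the opposite end. It read 976, 956 and 1075 on the WT arrays (mean 1002, SD 63.5) and 125, 136 and 139.6 on the KO arrays (mean 134, SD 7.60), which are all at background. The KO level was at least 17.9-fold lower (fitted log2 -4.87 ± 0.16, adjusted p 0.000723). A second Eif2s3y probe was at background on every array. The other tested Y-linked genes did not separate: Kdm5d read 163, 180.3 and 165 in WT and 191, 162 and 192 in KO, and Uty read 182, 188 and 149 against 193, 180.5 and 195. Both were dim in WT, little above the background threshold of 149.0 to 155.1, so a loss could hardly show in them. The Y-linked Ddx3y, Uba1y, Usp9y, Zfy1 and Zfy2 were not among the genes tested. Xist was at background on all 6 arrays on each of its 4 probes. The X-linked partner Eif2s3x was slightly lower in KO (log2 -0.22 ± 0.14, adjusted p 0.314) with arrays that did not overlap. Of 7 tested Y-linked genes and X partners, 3 were lower (Eif2s3y, Eif2s3x, Ddx3x) and 0 higher, beside 11.6% and 13.6% of all genes tested. The arrays of Eif2s3x and Ddx3x were only 0.0034 and 0.053 apart on the log2 scale.

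Cldn34c1, an X-linked member of the claudin family, read 119.7, 113 and 121 in WT, at background, and 287, 257 and 320.3 in KO. Its level was at least 3.83-fold higher in KO (fitted log2 3.11 ± 0.17, adjusted p 0.00752), and its second probe differed by 0.58. Pnpla3, a lipase and acyltransferase of lipid droplets, read 124, 122 and 120.5 in WT, also at background, and 209.7, 176 and 196 in KO, at least 1.87-fold higher (fitted log2 1.97 ± 0.15, adjusted p 0.0234). For both genes the WT level is only a bound.

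Gcnt1, the enzyme that branches core 2 O-glycans, had the most even difference of the 7. It read 198, 199 and 195.5 in WT and 427, 422 and 429 in KO, so that the SD within a genotype was 1.92 and 3.91. The log2 difference was 1.78 in sham and 1.78 in TAC (overall 1.78 ± 0.12, 3.43-fold, adjusted p 0.0153). A second probe gave 148, 146 and 139.9 in WT and 262, 294 and 248 in KO, a difference of 1.99.

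Hspa1l, a constitutive relative of HSP70 known for its high level in testis, read 610.4, 659.7 and 559 in WT and 241, 235 and 228 in KO (log2 -1.94 ± 0.14, 3.85-fold lower, adjusted p 0.0163). Rhox5, an X-linked homeobox gene, read 350.2, 408 and 373 in WT and 172, 178 and 183.5 in KO (log2 -1.88 ± 0.13, 3.68-fold lower, adjusted p 0.0153). Both genes differed by nearly the same amount under each surgery, Hspa1l by -1.89 and -1.97 and Rhox5 by -1.84 and -1.90.

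A gap between the sham and the TAC difference adds to the residual spread of the test of genotype. The called genes are thus partly chosen for like differences, and a close match is no separate result. The interval of the interaction shows how far apart the differences may still lie. The TAC minus the sham difference was 0.54 for Tnfrsf22 (95% interval -0.29 to 1.37), 0.44 for Eif2s3y (-0.16 to 1.05), 0.0008 for Gcnt1 (-0.55 to 0.55), -0.09 for Hspa1l (-0.73 to 0.55) and -0.05 for Rhox5 (-0.64 to 0.54). It was 0.04 for Cldn34c1 (-0.76 to 0.85) and -0.28 for Pnpla3 (-0.95 to 0.39). When each array was left out in turn, Tnfrsf22 and Eif2s3y kept their call in all 6 fits. Cldn34c1 kept it in 3, its adjusted p being 0.151 without WT TAC replicate 1, 0.105 without WT TAC replicate 2 and 0.0639 without KO TAC replicate 2. Pnpla3, Gcnt1, Hspa1l and Rhox5 kept it only without a sham array, where the test rests on the TAC arrays alone. Their adjusted p-values without 1 TAC array lay between 0.0753 and 0.315.

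**Figure D1:**
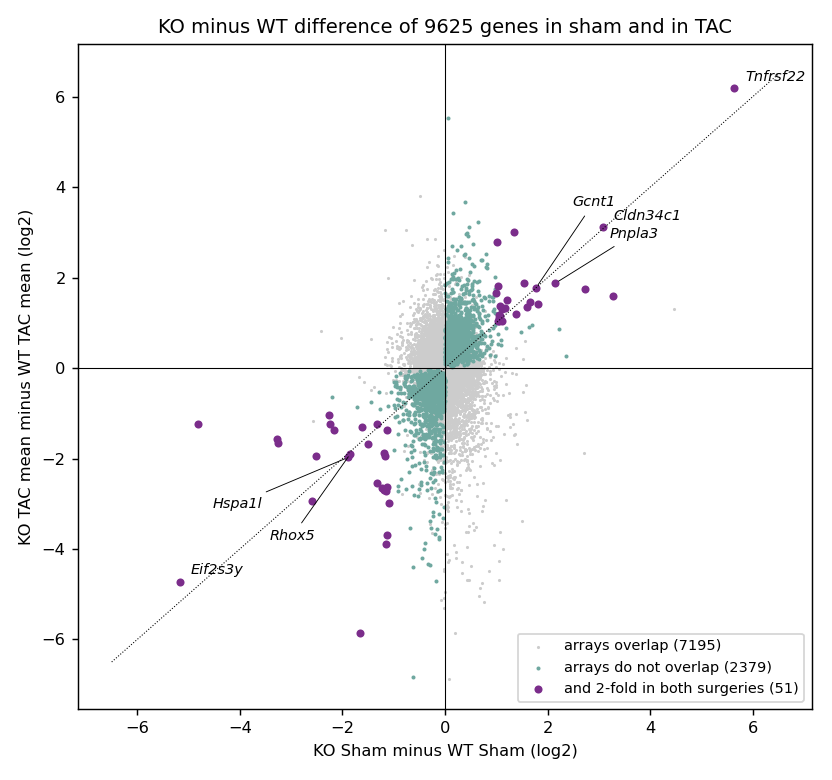
KO minus WT difference on the log2 scale in sham (x axis, 1 array against 1) and in TAC (y axis, 2 against 2) for the 9625 genes, each a point. The dotted line marks equal differences, and names mark the 7 genes that passed the test. Tnfrsf22 (5.64, 6.19) and Eif2s3y (-5.17, -4.72) lie far along the line of equal differences, and most other points spread further along the TAC axis than along the sham axis.

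In all, 51 of the 2430 genes differed at least 2-fold under both surgeries, 25 higher (0.26%) and 26 lower (0.27%) in KO (0.53% of the genes tested together), and 192 differed at least 1.5-fold (1.99%). These counts rest on the background correction: without it 2 genes of chromosome 6 and 12 of all others differed at least 2-fold, and 9 and 62 at least 1.5-fold. Of the 51, 37 had a sham difference between 0.5 and 2 times the TAC difference, 10 had a TAC difference at least 2 times the sham difference and 4 the reverse. Of these, 12 were at background on all arrays of 1 genotype. In all 16 of the 51 had more than 1 probe above background, and in 13 of those all probes had the same sign. Genes just inside the non-overlap rule hardly differed: the nearest, Gpr137, read 421 to 432 in KO and 366 to 421 in WT, and the nearest outside it, Atp5k, read 426 to 502 in KO and 366 to 426 in WT.

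**Figure D2:**
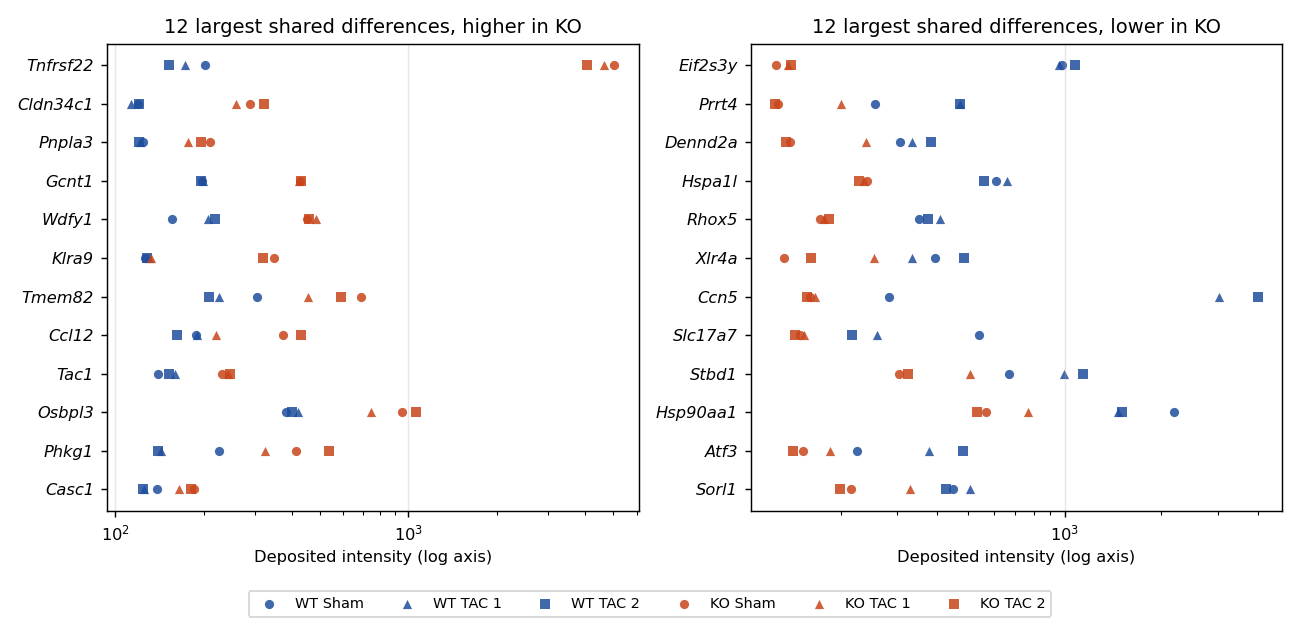
Deposited intensity on each of the 6 arrays (log axis) for the 12 genes with the largest shared difference in each direction; blue is WT, orange KO, circles sham, triangles TAC replicate 1 and squares TAC replicate 2. The 3 KO points of Gcnt1 lie within 422 to 429, whereas the KO TAC 1 point of Klra9 lies beside the WT points at 132.

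Wdfy1, Klra9 and Ccl12 were among the 12 higher genes with the largest shared difference and did not pass the test. Wdfy1, an endosomal adaptor in Toll-like receptor signalling, read 156, 206 and 218 in WT and 452, 482 and 457 in KO (log2 2.08 ± 0.23, adjusted p 0.0849). Its second probe had the opposite sign (-0.64). Klra9, a member of the Ly49 family of natural killer cell receptors, read 126.5, 129.8 and 128 in WT and 347 and 319.9 in KO Sham and KO TAC replicate 2, but 132 in KO TAC replicate 1, which was at background like the WT arrays (at least 2.42-fold higher, fitted log2 2.15 ± 0.77, adjusted p 0.167). The related Klra3 and Klra10 were higher in KO with differences of 1.04 and 1.49, so that all 3 tested Klra genes were among those described. Of all genes tested, 13.6% were higher in KO without overlap. Ly49 genes share much sequence, and probes may read more than 1 of them. Of 10 lymphocyte markers only Cd79b was tested, and its arrays overlapped.

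The chemokine Ccl12 read 189.0, 189.7 and 162 in WT and 373, 221 and 429.8 in KO (log2 1.53 ± 0.40, adjusted p 0.147). Cxcl9, a chemokine induced by interferon, read 227, 175 and 187.5 against 382, 250.5 and 363, and the inflammatory protease Casp1 read 283, 260.3 and 268 against 473, 418 and 489. For Ccl12, Cxcl9 and Casp1 the KO array nearest to WT was KO TAC replicate 1. Of 33 guanylate-binding, interferon-induced and related chemokine genes, a family picked after the values were seen, 5 were higher and 2 lower in KO without overlap, a share below the 25.2% of all genes tested. Of 12 macrophage markers only Cx3cr1 was among the genes described (171, 150.2 and 163 in WT, 219.6, 223 and 215 in KO), and the summed intensity of that list was 6468 to 27140 in WT and 7611 to 9290 in KO. Of 6 tested neutrophil markers (summed intensity 1066 to 12085 in WT and 934 to 1255 in KO) and 10 tested fibroblast markers, 0 were among them.

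Other genes with a large shared difference were also higher in KO. Osbpl3, an oxysterol-binding protein, read 381, 421 and 401 in WT and 948, 747 and 1060 in KO (log2 1.44 ± 0.19, adjusted p 0.116), and its second bright probe differed by 1.38. Phkg1, the catalytic subunit of muscle phosphorylase kinase, read 226, 143.5 and 139.8 against 414, 324 and 534 (2.46 ± 0.42, adjusted p 0.147), with both WT TAC arrays at background and a TAC level at least 6.66-fold higher. Tac1, the precursor of substance P, read 139.5, 159 and 153 against 231, 243 and 246 (1.56 ± 0.15, adjusted p 0.0598), and it passed when every probe was fitted (adjusted p 0.0313). The membrane protein Tmem82 did likewise (304.5, 225 and 208 in WT, 689.9, 455.5 and 588 in KO, adjusted p 0.0761 over genes and 0.0408 over probes). Tac1 was nearly level over the KO arrays, whereas Phkg1 and Tmem82 varied more. Also at least 2-fold higher under both surgeries were Casc1, Hddc2, the collagenase Mmp13, Hadha (a subunit of the mitochondrial trifunctional protein), Rgs2, Akr1c12, Itm2a, Clk1, the water channel Aqp4 and the pro-apoptotic Bcl2l11.

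Among genes that were lower in KO, Prrt4 and Dennd2a had the largest shared differences after Eif2s3y, again without passing the test. Prrt4 read 256, 470.5 and 472 in WT and 127, 200.1 and 124 in KO (log2 -2.82 ± 0.50, adjusted p 0.147). Dennd2a, an activator of Rab proteins, read 305, 333 and 381 against 139, 239.5 and 135 (-2.14 ± 0.53, adjusted p 0.147). KO Sham and KO TAC replicate 2 were at background for both genes, so that the sham level was at least 3.02-fold lower for Prrt4 and at least 3.98-fold lower for Dennd2a, and the fitted values depend on the background correction (-1.39 and -1.04 without it). In both genes KO TAC replicate 1 lay between the other KO arrays and the WT arrays, as it did for the X-linked Xlr4a (393, 333.5 and 483 in WT, 133, 254 and 162 in KO) and for Rab6b (439.7, 332 and 427 in WT, 173, 322 and 184 in KO). KO TAC replicate 1 was the KO array nearest to WT in 35 of the 51 genes, against 8 for each of the other KO arrays, and in 1027 of all 2430 (42.3%). For Kdm3a, Eif2s3y and Tnfrsf22 that array read like the other KO arrays.

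The other genes of the 12 with the largest shared difference included Stbd1, Slc17a7, Sorl1 and Atf3, none past the test. Stbd1, which tethers glycogen to membranes, read 670.1, 995 and 1138 in WT and 304, 506 and 324 in KO (log2 -1.63 ± 0.25, adjusted p 0.147). Slc17a7, a vesicular glutamate transporter, read 541, 259.6 and 216 against 149, 153 and 144, all 3 at background, at least 3.94-fold lower (log2 -1.07 without background correction). The sorting receptor Sorl1 read 449, 505 and 424 against 216, 329 and 198 (-1.41 ± 0.34). The stress-induced factor Atf3 read 225, 377 and 479.9 against 152, 185 and 141.5 (-2.13 ± 0.39).

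Some of the lower genes encode chaperones of the heat shock response. Heat shock factors bind repeats of the pentamer nGAAn in alternating orientation, and the inducible HSP70 gene Hspa1a and its testis relative Hspa1l lie next to each other on chromosome 17. The 250 bases upstream of the RefSeq gene start are printed 5′ to 3′ on the gene's own strand for Hspa1a, Hspb1 and Hspa1l, since Hspa1l passed the test and the other genes, its neighbour among them, were at least 2-fold lower under both surgeries. Capitals mark each match to GAANNTTC or TTCNNGAA, each of which is its own reverse complement, so that both strands were searched.
Hspa1a (GRCm38.p6, chr17:34972157-34972406, minus strand): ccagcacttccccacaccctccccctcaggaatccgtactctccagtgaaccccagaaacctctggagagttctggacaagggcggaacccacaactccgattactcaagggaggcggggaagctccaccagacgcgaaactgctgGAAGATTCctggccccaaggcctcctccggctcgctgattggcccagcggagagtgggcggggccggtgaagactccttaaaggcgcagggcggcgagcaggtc
Hspb1 (GRCm38.p6, chr5:135887669-135887918, plus strand): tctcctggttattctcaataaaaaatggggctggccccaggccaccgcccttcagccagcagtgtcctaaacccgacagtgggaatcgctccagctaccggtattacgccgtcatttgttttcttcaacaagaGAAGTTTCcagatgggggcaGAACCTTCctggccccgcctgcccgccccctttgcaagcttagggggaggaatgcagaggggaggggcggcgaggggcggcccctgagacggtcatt
Hspa1l (GRCm38.p6, chr17:34972453-34972702, plus strand): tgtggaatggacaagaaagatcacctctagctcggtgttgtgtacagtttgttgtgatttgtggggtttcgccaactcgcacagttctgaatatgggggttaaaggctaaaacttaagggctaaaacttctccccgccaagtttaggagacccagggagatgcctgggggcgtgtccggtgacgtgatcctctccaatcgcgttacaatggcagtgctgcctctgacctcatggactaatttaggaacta
Hspa1a held 1 match, Hspb1 2 that did not overlap and Hspa1l 0, and 12.8% of 32851 RefSeq windows of this length held at least 1. Of the other heat shock genes searched, Hspa1b and Hsph1 held 1 match in each window and Hspb8, Dnajb1 and Bag3 held 0. Hsp90aa1 and Hspa8 had no window to search. Hspa1b, Hsph1 and Dnajb1 were not among the genes whose KO and WT arrays did not overlap. A match is a string of letters, and its absence from Hspa1l says only that these letters are not in that window.

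Hspb1, the small heat shock protein HSP27, read 8303, 8079 and 9956 in WT and 3370.3, 4292 and 3474 in KO (log2 -1.27 ± 0.16, adjusted p 0.116), and its differences of -1.33 in sham and -1.24 in TAC were alike. Hsp90aa1, the inducible HSP90, read 2189, 1464 and 1505 against 569, 767 and 533 (-1.64 ± 0.25, adjusted p 0.147), with a second probe at -0.51. Hspa1a read 1296 in WT Sham but 259.5 and 339 in WT TAC, against 146, 229 and 156 in KO. KO Sham was at background, so the sham level was at least 23.6-fold lower (fitted log2 -4.81), WT Sham being the one array far above the rest, and the sham and TAC differences of Hspa1a differed (interaction adjusted p 0.0231). Hspa1a has a near-identical copy, Hspa1b, and the array cannot be assumed to tell them apart.

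Hspb8, a partner of HSPB1 in protein quality control, was bright throughout and differed by -0.59 under each surgery (24046, 23847 and 25550 in WT, 15973, 16833 and 16021 in KO). Of 49 tested heat shock and DNAJ genes, a family picked after values were seen, 11 were lower and 7 higher in KO without overlap, beside 11.6% lower and 13.6% higher of all genes tested. All 5 of them that differed at least 1.5-fold under both surgeries were lower, beside 98 higher and 94 lower among all 9625 genes at that cut. The 7 higher ones included Hsp90b1 and Hspa9, the chaperones of the endoplasmic reticulum and of mitochondria, and Dnajc19 and Dnajc15 of the mitochondrial import motor, with differences between 0.20 and 0.57. Of 13 tested immediate early and heat shock genes on a list, 3 were lower (Atf3, Hspa1a, Hspb1) and 0 higher, beside 11.6% and 13.6% of all genes tested. That list, used for tissue handling as much as for stress, had a summed intensity of 25423 to 44741 in WT and 13308 to 16458 in KO. The part of tissue handling in these differences was not tested.

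**Figure D3:**
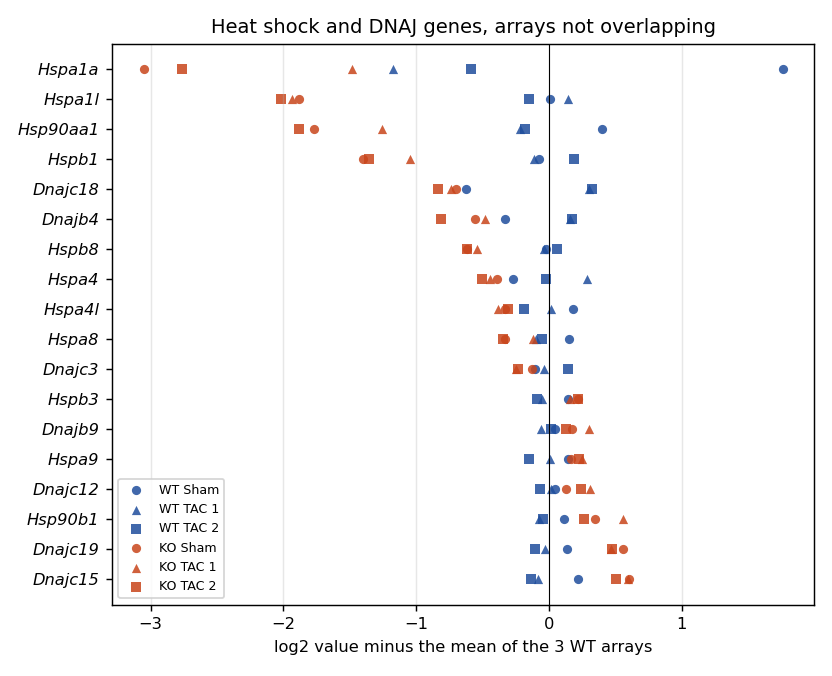
Log2 value of the 18 heat shock and DNAJ genes whose KO and WT arrays did not overlap, each minus its mean over the 3 WT arrays (x axis); colours and symbols mark genotype and array. Hspa1l, Hsp90aa1 and Hspb1 show 3 KO arrays more than 1 unit below the WT mean, while Hspa1a shows WT Sham far above both WT TAC arrays.

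Among 11 tested H3K9 methylation enzymes, Kdm3a, Kdm4b and Prdm2 were lower and Kdm4a higher in KO without overlap. These 4 of 11, the deleted Kdm3a itself among them, stand beside 25.2% of all genes, and none passed the test. Prdm2, an H3K9 methyltransferase, read 342, 475 and 493 in WT and 284, 298 and 276 in KO (log2 -0.84 ± 0.18, adjusted p 0.147), and the demethylase Kdm4b differed by -0.35 ± 0.13 and Kdm4a by 0.30 ± 0.18. Kdm4a was close to background (155, 143 and 158 in WT, 158, 160 and 169 in KO). Its arrays were only 0.0098 apart on the log2 scale, and its sham difference was 0.09. Kdm4c (0.02), Setdb1 (-0.02) and Wiz (-0.01) had arrays that overlapped and differences near 0. The closest relatives of Kdm3a, Kdm3b and Jmjd1c, were not among the genes tested. The list's median difference was -0.02, against 0.02 over all genes.

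Of 9 tested genes whose level is known to vary between mouse strains, 3 were higher and 2 lower in KO without overlap, beside 13.6% and 11.6% of all genes tested. Beside Wdfy1 these were Erdr1 (729, 1107 and 1259 in WT, 3025, 1465 and 2948 in KO), Nnt, Entpd4 and Ide. Nnt, the mitochondrial transhydrogenase that C57BL/6J mice lack, was at background in WT and read 154, 139 and 139.5 there and 167, 187 and 167 in KO, at least 1.46-fold higher (log2 0.27 without background correction) by its probe of the highest level, while its 7 other probes were at background on all arrays. Entpd4 read 6394, 4685 and 4672 in WT and 3382, 3538 and 3550.0 in KO (log2 -0.59 ± 0.16, adjusted p 0.147), and a dimmer probe of it passed when every probe was fitted (-1.62 ± 0.14, adjusted p 0.021). Glo1, Alad, H2-Eb1 and Cyfip2 had arrays that overlapped. The part of genetic background in these differences was not tested.

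Differences shared by both surgeries were unevenly spread over the chromosomes. On chromosome 6, which carries Kdm3a, 21 of 504 tested genes differed at least 1.5-fold under both surgeries (4.17%), against 171 of 9121 on all others (1.87%), and 9 (1.79%) against 42 (0.46%) differed at least 2-fold. These 9 were Tac1, Osbpl3, Klra9, Klra3 and Casc1, higher in KO, and Col1a2, Prrt4, Parp12 and Dennd2a, lower. Without background correction the numbers were 9 and 62 at 1.5-fold and 2 and 12 at 2-fold, out of the same 504 and 9121 genes. Among genes above background on all 6 arrays they were 11 and 109, and 2 and 24. Fewer genes were tested there, and their number per chromosome is not given, so those counts are no shares. Chromosomes 19 and 13 followed with 3.41% and 3.26% at 1.5-fold. At 2-fold the next were X with 1.41% (4 of 283) and chromosome 17 with 1.02% (5 of 489), leaving aside Y, with few genes tested. KO TAC replicate 1 was the KO array nearest to WT in 15 of the 21 genes of chromosome 6 and in 101 of the 171 elsewhere, 116 of 192 in all. No test was made of these shares, since genes are not independent replicates.

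**Figure D4:**
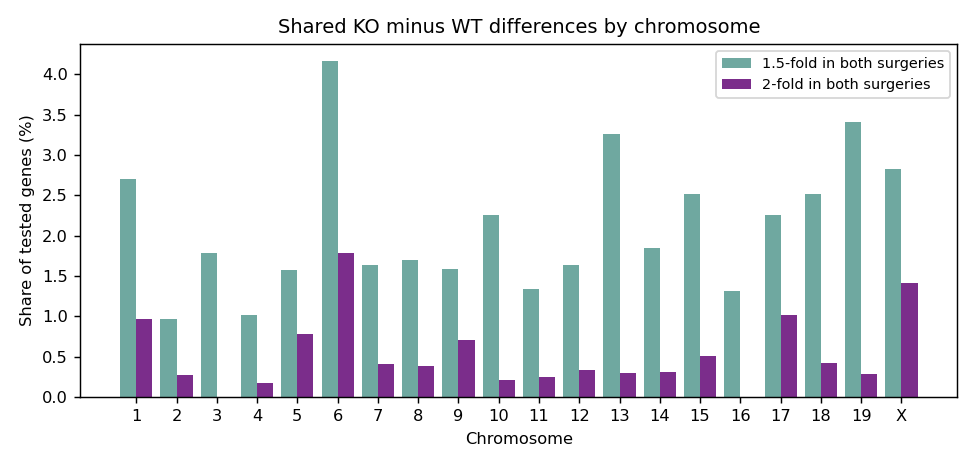
Share of tested genes (y axis, percent) on each chromosome (x axis) whose arrays did not overlap and whose KO and WT levels differed at least 1.5-fold (green) or 2-fold (purple) under both surgeries; Y, mitochondrial and unplaced genes, with few tested, are left out. Chromosome 6 has the highest bar of each kind, 4.17% and 1.79%.

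The chromosome 6 genes lay at many places along it. In the gene order of GRCm38.p6, which served for order only since the array's build is not given in the sources used here, 351 protein-coding genes lie between Prrt4 and Kdm3a and 507 between Kdm3a and Klra9. Some lay side by side: Klra10 and Klra3 are adjacent, Rbm28 and Prrt4 are adjacent and both lower, and 4 genes separate Parp12 and Dennd2a. Parp12 read 239, 219.8 and 212 in WT and 131, 204 and 122 in KO, with KO TAC replicate 1 next to WT. Among the nearest 50 reference genes on either side of Kdm3a, 28 were tested and 11 were among the genes described, 8 higher and 3 lower, beside 25.2% of all genes tested and 29% of those on chromosome 6, and none of them was 1.5-fold different under both surgeries. Rnf103, an E3 ubiquitin ligase, was one of the closest (1546, 1861 and 2020 in WT, 1191, 1348 and 1226 in KO, log2 -0.56 ± 0.13, adjusted p 0.147). Rpia, Reep1, Mrpl35, Immt, 0610030E20Rik, Tmem150a, Kcmf1 and Suclg1 were higher and Usp39 and Capg lower, none past the test. All but Tmem150a differed more in TAC than in sham, as Suclg1 did with 0.11 in sham and 0.70 in TAC.

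**Figure D5:**
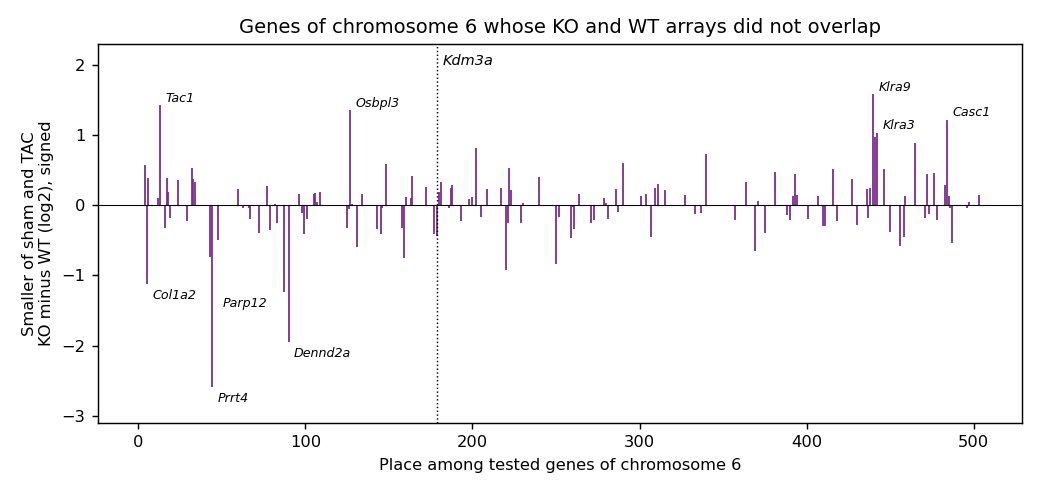
Tested genes of chromosome 6 in reference order (x axis, place among 504 tested genes) and, for those whose arrays did not overlap, the smaller of the sham and TAC difference with its sign (y axis, log2). The dotted line marks Kdm3a. The named genes differ at least 2-fold under both surgeries and lie apart from Kdm3a on either side.

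For most of the 2430 genes the difference was larger in TAC than in sham. The median size was 0.25 in sham and 0.55 in TAC on the log2 scale. Over all genes it was 0.19 and 0.38, so TAC was the larger there too. In 1343 genes (763 higher and 580 lower) the TAC difference was at least 2 times the sham difference, in 107 the reverse, and in 980 (40.3%) the sizes were alike by the range of 0.5 to 2 times. The interaction test called 248 of the 2430 (10.2%), against 14% of all genes tested. These shares are not like for like, since the non-overlap rule leaves out genes with opposite signs in sham and TAC. KO Sham vs WT Sham called 0.0623% of all genes and KO TAC vs WT TAC 41.2%. Each sham group is 1 array whose spread is assumed to be that of the TAC arrays.

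The fetal and matrix lists held genes with such differences. Of 12 fetal and hypertrophy genes 5 were lower and 0 higher in KO without overlap, beside 11.6% and 13.6% of all genes tested. Acta1, the skeletal actin re-expressed in overloaded hearts, read 19904 in WT Sham and 33790.2 and 32228 in WT TAC, against 8540 in KO Sham and 7868 and 3586 in KO TAC, and was the one fetal gene at least 2-fold lower under both surgeries (-1.23 and -2.66). The slow myosin Myh7 read 341.5, 3051 and 2911 in WT and 279, 291 and 233 in KO, a difference of -0.44 in sham and -4.20 in TAC. The natriuretic peptide Nppa differed by -0.14 and -2.71. Of 36 matrix genes 8 were lower and 1 (Timp4) higher, beside 11.6% and 13.6% of all genes tested. The interaction test called 30 of the 36, against 14% of all genes tested. Ccn5 differed by -1.65 in sham and -5.87 in TAC and Col1a2, a chain of type I collagen, by -1.13 and -3.70. The summed intensity of the fibroblast markers was 20608 to 35397 in WT and 22272 to 23968 in KO, and the part of cell numbers was not tested. The matrix list's median was 0.09 in sham and -1.87 in TAC, against -0.0057 and 0.04 over all genes.

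Of 22 adult contraction and calcium handling genes 6 were higher and 1 lower in KO, beside 13.6% and 11.6% of all genes tested. Kcnd2 and Kcnip2, subunits of the transient outward potassium channel, differed by 1.38 ± 0.32 and 1.56 ± 0.41 (limma, adjusted p 0.147 for each). Both differed more in TAC, Kcnd2 by 0.53 in sham and 1.81 in TAC and Kcnip2 by 0.28 and 2.20. Of 11 metabolic genes linked to KDM3A in other tissues 3 were higher, namely the glucose transporter Slc2a4 (2030, 1167 and 827 in WT, 2386, 2158 and 2315 in KO), the fatty acid oxidation enzyme Acadl and the coactivator Ppargc1a, and Cidea was lower. Their sham differences of 0.24, 0.42 and 0.31 were smaller than their TAC differences of 1.28, 1.11 and 0.64. Of 10 endothelial markers 4 were higher and 3 lower (summed intensity 16387 to 21003 in WT and 16131 to 17729 in KO), of 8 smooth muscle and pericyte markers 1 and 1 (9969 to 13774 and 9273 to 14441). Of 6 erythroid markers 0 were higher and 3 lower, with summed intensity 114922 to 118566 in WT and 103258 to 115647 in KO. The 3 lower ones differed by -1.03 (Alas2), -0.14 (Hbb-bs) and -0.09 (Hbb-bt). Hbb-b2, whose arrays overlapped, went the other way with a difference of 2.36. Of 4 atrial markers 0 were higher and 2 lower. Of 11 mitosis and replication genes 0 were higher and 1, Mcm2, was lower. All counts of these lists stand beside 13.6% higher and 11.6% lower of all genes tested. No member of these lists passed the test of genotype.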

How the data were processed

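The authors hybridised biotin-labelled cRNA from 6 left ventricle samples to Illumina mouse arrays, and the submitters' processing notes name GenomeStudio 2011.1. The deposited values are probe intensity on a linear scale, and once sorted they were the same on all arrays to within 0.838%, as quantile normalization leaves them. A deposited table of signals before normalization was not used, because its 6 signal columns could not be tied to samples. Background was corrected with limma nec (robust, offset 16) on 1540 olfactory, vomeronasal and taste receptor probes, then put on the log2 scale and quantile normalized again. Above background means over the 99th percentile of those probes (149.0 to 155.1) and a probe was kept if it was so on at least 2 arrays. Of 45281 probes, 34885 had 1 gene, 18 several and 10378 none, and 34807 (99.8%) matched GRCm38.p6. Receptor genes (24) were left out, and a gene's brightest kept probe stood for it.

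Genotype with surgery as covariate was fitted over 9625 genes with limma 3.58.1 in R 4.3.3 (3 residual and 2.84 prior degrees of freedom), with Benjamini-Hochberg adjustment at 0.05. One coefficient per group gave the sham and TAC differences and the interaction. Fold bounds set the dim genotype at the lowest background-corrected signal above background. Errors after ± are standard errors of the log2 difference. The number of arrays limits the precision. Named were the 12 genes with the largest smaller-of-two difference in each direction, Kdm3a, called genes, fixed lists, neighbours of Kdm3a and examples per list. The genes and lists were chosen with earlier results of these data known, and further genes at least 2-fold different, probes and families after values were seen. The fits were tested on simulated data. Alternatives covered background, filter, probe choice, model and left-out arrays.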

Additional observations from a re-analysis of the deposited data

Results flagged for a closer look

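Among the genes described by name, the KO minus WT difference was larger in TAC than in sham, or the reverse, by the interaction test (limma, adjusted p under 0.05) in 17. The TAC minus sham difference on the log2 scale was -4.21 for Ccn5, -3.77 for Myh7, -3.65 for Thbs1, -3.60 for Col8a1, -2.58 for Col1a2, -2.57 for Nppa, -2.11 for Capg, -1.96 for Cldn5, -1.47 for Xirp2, -1.42 for Alas2 and -0.98 for Wdfy1. Wdfy1 was higher in KO under both surgeries and less so in TAC, while the other 10 were lower in KO and more so in TAC. The difference was 3.56 for Hspa1a and 1.72 for Slc17a7, both lower in KO and less so in TAC. It was 2.64 for Aplnr, 1.91 for Kcnip2, 1.32 for Ckm and 1.28 for Hrc, all higher in KO and more so in TAC. All 17 rest on 1 sham array per genotype.

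Probes without a single annotated gene took no part in the comparison of genes, and 12 of the 27 probes called when every kept probe was fitted were of this kind. Probe ILMN_1254713 read 40446 in WT Sham and 5570 and 3317 in WT TAC, against 116, 116 and 132 in KO, at background (log2 -8.60 ± 0.71, adjusted p 0.0163). Probe ILMN_1242047 showed the opposite, with 3883, 2001 and 1706 in WT and 29341, 27682 and 26049 in KO (3.61 ± 0.23, adjusted p 0.0104). Probe ILMN_1239008 read 174, 149 and 132 in WT and 1451, 1314 and 1271 in KO (4.77 ± 0.24, adjusted p 0.00523). ILMN_2759484 was lower in KO (-1.51). The other 8 were higher: ILMN_1222598 (2.54), ILMN_1258858 (2.44), ILMN_1254827 (2.25), ILMN_1255372 (2.25), ILMN_2731024 (2.05), ILMN_2642444 (1.98), ILMN_1232244 (1.96) and ILMN_2535306 (1.51). None of these probes had arrays that overlapped between the genotypes.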

How the results depend on the processing

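The 4 higher and 3 lower calls depended on the model. Group coefficients, whose residual spread comes from the TAC pairs alone, gave 740 and 872 with the surgeries weighted equally and 1568 and 1524 weighted by arrays. Every kept probe gave 18 and 9, no background correction 2 higher, arrays all above background 2 higher, and the methods' t-test 1 and 0 (791 and 654 at an unadjusted p under 0.05). Leaving out 1 array gave 1 to 2077 higher and 1 to 1884 lower, the highest without either sham array, and 1 and 1 without WT TAC replicate 1, WT TAC replicate 2 or KO TAC replicate 2. Without KO TAC replicate 1 it gave 3 and 1. The replicate block for the TAC numbers gave 2 and 1. Replicate differences in WT and KO correlated at 0.047 over genes, but with 2 pairs this cannot show whether the numbers mark pairing. Non-overlapping genes were 2329 and 1829 over every kept probe and 1409 to 3540 higher and 1268 to 3067 lower with 1 array left out, the highest without WT Sham.

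The following alternatives were chosen after seeing the data. Genes at least 2-fold different in both surgeries (9 on chromosome 6, 42 elsewhere) were 2 and 12 without background correction and 2 and 24 above background on all 6 arrays. At 1.5-fold (21 and 171) they were 9 and 62, and 11 and 109. Interaction calls (1352) were 636 without a filter and 496 to 1656 with a TAC array left out, lowest without WT TAC replicate 2 and 835 without WT TAC replicate 1. KO TAC vs WT TAC (3961) gave 6437 over probes and 2129 to 3321 with a TAC array left out, lowest without WT TAC replicate 2. KO Sham vs WT Sham (6) gave 11 with offset 50, 1 without a filter, 20 over probes and 2 to 43 with a TAC array left out (2 without either WT TAC array, 43 without either KO TAC array).

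Of the values of named genes under the alternatives, 1451 kept direction and side of the threshold, 294 became called, 32 lost a call and 19 reversed, all of the last in uncalled genes near 0. Weighting surgeries equally turned Kdm4c (-0.094), H2-Eb1 (0.027) and Cd79b (0.012). With 1 array left out, Kdm4c ranged from -0.15 to 0.26, Setdb1 from -0.13 to 0.065, Wiz from -0.088 to 0.054, H2-Eb1 from -0.71 to 0.35, Cyfip2 from -0.62 to 0.24 and Cd79b from -0.18 to 0.18. Genes at background have only a bound, and dim genes are limited by signal over background.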
